A study of Homo sapiens with 10 samples.

Results

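The genes described here are 33 that run mitosis, the division of copied chromosomes between daughter cells. They are protein kinases, spindle checkpoint and kinetochore proteins, motors, and factors that open anaphase. They were chosen by name for what they do and not by a cut on their values, and all 33 were found among 20037 protein-coding genes of the reference table. For each gene, peak summits within 1 kb of either end of the gene were taken from peak lists of 6 ChIP-seq libraries. ChIP-seq sequences the DNA fragments pulled down with an antibody against a chromatin protein.

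All libraries came from 22RV1, a prostate cancer cell line that is long established. Of 10 samples, 1 in each group, 6 are immunoprecipitated libraries, which were used here, and 4 are IgG mock immunoprecipitations, which were not analysed here. Every sample carries the treatment label transfection infection. The labels do not name the antibody, and the title of the series names TRIM24, a protein that reads chromatin marks. In the first pair, cells received a control siRNA (RB1_NC) or an siRNA against RB1 (RB1_S1), the gene of the retinoblastoma protein RB. The second pair carried an empty vector, called EV(245-255), or a plasmid for an HA-tagged piece of RB, residues 245 to 255, called HA-RB(245-255). The last pair carried an empty vector, EV(RBN), or HA-RBN, a plasmid whose insert, RBN, is not described further. The genotype field of HA-RB(245-255) reads as a control group, against its title. The design text of the series gives another first residue for the RB piece than the titles do. The titles were followed in both cases. With 1 library per group of 1 line, no difference below has a replicate check and no p-value is given.

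Genes of mitosis are switched on late in the cell cycle. In resting cells RB relatives, E2F factors and the MuvB complex hold them off, and later the MYBL2 and FOXM1 proteins join MuvB to turn them on. MuvB contacts DNA through a short element near the start site, the cell cycle genes homology region (CHR), and NF-Y binds CCAAT boxes a little further upstream.

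The promoters of the members carried those letters often. Start sites with sequence were at hand for 27 of the 33 members, from RefSeq (GRCh38.p14). In the 250 bases before a start, the CHR letters TTTGAA, read on both strands, occurred in 15 of the 27 members, 55.6%, against 14.2% of 15843 genes with such an entry. CCAAT, on both strands, occurred in 21 of 27, 77.8%, against 40.2%. Both occurred together in 13 of 27, 48.1%, against 6.97%. The rarer CHR letters TTCGAA were in 0 of 27, against 1.74%. The E2F letters TTTNGCGC were in 2 of 27 (CDK1 and NUSAP1), 7.41% against 2.48%, and GGCGGGAA in another 2 (CENPA and SPC25), 7.41% against 4.6%. GC boxes, GGGCGG, which can share bases with GGCGGGAA, were in 18 of 27, 66.7% against 62.1%. The median GC content was 62.4% over the windows of 34 listed starts of the members and 62% over all 22183. A match of letters is a description and not a bound site.

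The 210 bases before the start are shown for 6 members with a single listed start and the most fragments over all libraries, to show the stretches in which 2 to 5 of each gene's summits lay. Each is read 5′ to 3′ on the strand of the gene and ends at the base before the start (RefSeq, GRCh38.p14). Capitals mark TTTGAA and CCAAT or their reverse complements, TTCAAA and ATTGG.
NUSAP1, chr15:41332671-41332880, plus strand: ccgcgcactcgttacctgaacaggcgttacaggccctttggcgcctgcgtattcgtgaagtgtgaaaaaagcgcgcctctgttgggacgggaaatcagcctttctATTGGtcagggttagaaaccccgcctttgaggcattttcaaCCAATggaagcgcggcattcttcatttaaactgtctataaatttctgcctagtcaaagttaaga
ANLN, chr7:36389652-36389861, plus strand: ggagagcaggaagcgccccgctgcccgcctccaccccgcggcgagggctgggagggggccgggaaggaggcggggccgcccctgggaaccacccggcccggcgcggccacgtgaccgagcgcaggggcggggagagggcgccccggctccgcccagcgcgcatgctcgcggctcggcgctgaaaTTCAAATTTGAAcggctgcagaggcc
PRC1, chr15:90994536-90994745, minus strand: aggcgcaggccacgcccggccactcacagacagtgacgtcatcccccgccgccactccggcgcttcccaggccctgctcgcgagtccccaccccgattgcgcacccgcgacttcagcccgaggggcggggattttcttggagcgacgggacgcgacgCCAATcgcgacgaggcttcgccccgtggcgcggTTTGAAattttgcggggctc
CENPA, chr2:26785846-26786055, plus strand: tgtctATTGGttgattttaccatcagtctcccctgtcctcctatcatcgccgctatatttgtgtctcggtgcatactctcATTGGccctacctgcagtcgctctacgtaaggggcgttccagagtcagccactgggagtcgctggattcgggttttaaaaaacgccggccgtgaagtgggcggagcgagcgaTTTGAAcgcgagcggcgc
NUF2, chr1:163321744-163321953, plus strand: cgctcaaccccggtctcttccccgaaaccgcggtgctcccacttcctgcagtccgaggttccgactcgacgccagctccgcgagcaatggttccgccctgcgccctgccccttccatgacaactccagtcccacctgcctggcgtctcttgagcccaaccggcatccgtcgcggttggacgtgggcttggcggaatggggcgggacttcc
MAD2L1, chr4:120066849-120067058, minus strand: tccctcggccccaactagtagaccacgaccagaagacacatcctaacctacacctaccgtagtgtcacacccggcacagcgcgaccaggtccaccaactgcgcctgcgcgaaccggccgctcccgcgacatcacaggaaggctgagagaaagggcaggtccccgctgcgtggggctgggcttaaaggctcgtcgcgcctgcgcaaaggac

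PRC1 has CCAAT beginning 53 bases and TTTGAA beginning 20 bases before its start. CENPA has TTTGAA at 18 bases, with ATTGG at 130 and 205 bases. ANLN has TTCAAA at 26 and TTTGAA at 20 bases side by side and no CCAAT. NUSAP1 has the boxes at 105 and 64 bases and no TTTGAA, and NUF2 and MAD2L1 have neither in these windows.

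The members' summits lay at their start sites. Among members with a listed start, the summit lay within 1 kb of it in 12 of 12 and 15 of 15 cases in the siRNA pair, control first. It did so in 14 of 15 and 16 of 18 in the 245-255 pair and in 24 of 24 and 26 of 27 in the RBN pair. Over all genes with a listed start the shares were 91.5%, 92.0%, 86.5%, 87.0%, 78.4% and 81.8% in the same order of libraries, called library order below. The exceptions were CDC25C in EV(245-255), PLK1 and NDC80 in HA-RB(245-255) and ESPL1 in HA-RBN, whose summits lay near the far end of the gene. PLK1's summit there lay 451 bp from an end of ERN2. In the siRNA and 245-255 pairs the summits sat mostly upstream, with medians of -154, -64, -152 and -115 bp. The medians were -61 bp in EV(RBN) and -15.5 bp in HA-RBN. Ranges ran from -620 to 684 bp in EV(RBN) and from -670 to 454 bp in HA-RBN. Upstream lay 16 of 24 summits in EV(RBN) and 14 of 26 in HA-RBN. Medians over all genes were -79, -69, -78, -74, -110 and -49 bp in the library order. Of the 7 members with a listed start and a summit in all 6 libraries, CENPA and PRC1 varied least, from -289 to -173 bp and from -327 to -184 bp. ANLN ranged from -242 to 519 bp.

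**Figure D1:**
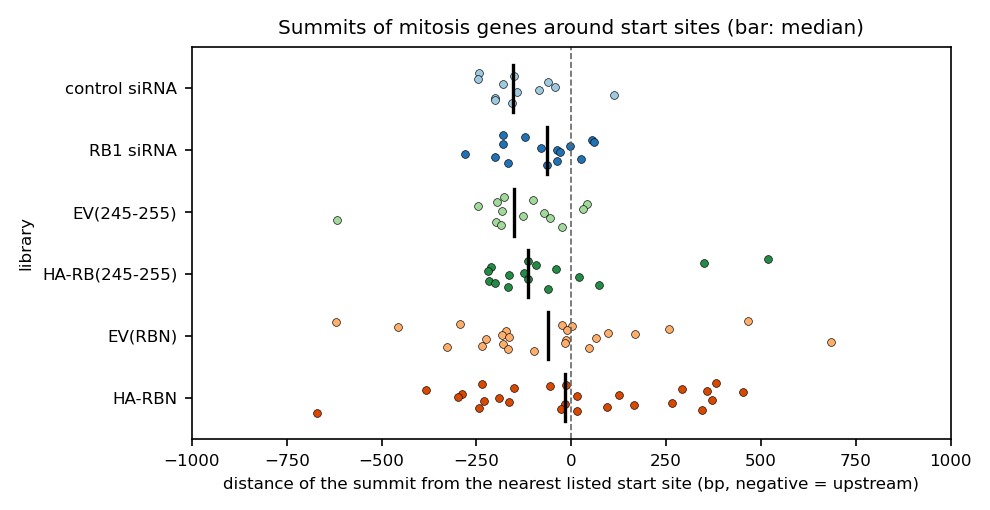
Distance of each member's summit from its nearest listed start site, in bp, for the 6 libraries. Each point is 1 gene, the black bar is the median, and summits over 1 kb away are not drawn. Points of the siRNA and 245-255 libraries lie mostly upstream of the start. Those of both RBN libraries spread on both sides, from -620 to 684 bp in EV(RBN) and from -670 to 454 bp in HA-RBN.

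A member's summit can belong to another gene too. Ends of 10 protein-coding neighbours lay within 1 kb of the summits of 10 members. An end of OIP5 lay 11 to 456 bp from the NUSAP1 summit, an end of CSTF1 45 to 146 bp from that of AURKA, and an end of MATCAP2 24 to 737 bp from that of ANLN, in all 6 libraries. RGS5 was that close to NUF2 in 5 libraries, and BRD8 to KIF20A and METTL4 to NDC80 in 3 each. FAM53C was so near to CDC25C, RHNO1 to FOXM1 and DNTTIP1 to UBE2C in 2 each. For these members the lists cannot tell which gene the fragments belong to.

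More members had a gene end summit than genes in general, in each library. Under the control siRNA 15 of 33 members had one, 45.5% (exact Clopper-Pearson 95% interval 28.1 to 63.6), against 28.1% of all genes. With RB1 siRNA it was 19, 57.6% (39.2 to 74.5), against 33.5%. EV(245-255) had 20, 60.6% (42.1 to 77.1), against 45.4%, and HA-RB(245-255) 21, 63.6% (45.1 to 79.6), against 45.5%. EV(RBN) had 29, 87.9% (71.8 to 96.6), against 60.2%, and HA-RBN all 33 (89.4 to 100), against 73.4%. The intervals cover counting error only. Those of both 245-255 libraries include the share of all genes, and the lower bound under the control siRNA equals it when rounded. The lists ran from 21666 to 252425 peaks. With the 20000 peaks of highest fold enrichment from each list, the members with a summit were 15, 19, 18, 17, 19 and 28 in library order, beside 28%, 32.5%, 37.3%, 36.7%, 28.7% and 40.7% of all genes.

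**Figure D2:**
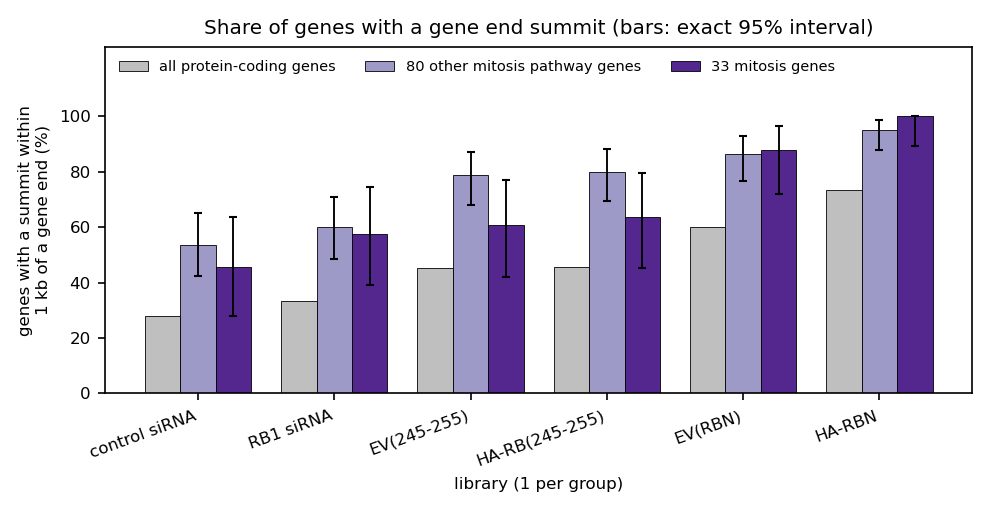
Share of genes, in percent, with a summit within 1 kb of a gene end in each library, for all 20037 protein-coding genes, 80 other genes of the mitosis pathway and the 33 mitosis genes. Error bars are exact 95% binomial intervals over genes. The mitosis genes stand above all genes in each library, from 45.5% against 28.1% to 100% against 73.4%.

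A gene end without a listed summit could still lie inside a listed interval. In the 4 libraries with an IgG partner the peak intervals had median widths of 83581, 51167, 22317 and 18225 bp, and each interval lists 1 summit. There the unlisted members, 18, 14, 13 and 12 in library order, all lay with an end inside an interval whose summit was elsewhere. Either end counted, so the place of the other library's summit could lie in no interval. CDK1 and TPX2 in HA-RB(245-255) and CENPE, ZWINT and TOP2A in EV(245-255) had none there. Where the background pileup was 1, taken as 1 IgG read, listed summits had at least 205, 173, 72 and 59 fragments. That was more than any member held in those libraries. In EV(RBN) the intervals had a median width of 450 bp, and the 4 unlisted members, BUB1, CENPE, SPC25 and BIRC5, had no interval over either end.

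Levels are given as fragments stacked at the summit, recovered from the authors' fold enrichment and p-value, and as enrichment, which divides them by the background of the library. For each gene the gene end summit with the most fragments was taken, so values of a gene can come from different sites in different libraries. The background, an index of depth, was 0.413, 0.539, 0.187, 0.250, 0.367 and 0.634 fragments per base in library order. Read totals were not used here. Over the members with a summit the median was 35, 28, 18, 14, 8 and 16 fragments. Over all genes with one it was 25, 28, 12, 11, 5 and 10. The member median was equal to the general one with RB1 siRNA and above it in the other 5 lists. As enrichment the member medians were 84.7, 52.0, 96.0, 56.0, 21.8 and 25.2. Enrichment is not the authors' fold, which is small in the IgG-partnered lists. ANLN with the control siRNA had an enrichment of 165, an authors' fold of 2.11 and -log10 q of 0.32. NUSAP1 with RB1 siRNA had 176, 2.58 and 0. Summits of 20 or more fragments were held by 13, 14, 8, 6, 0 and 10 members, 39.4%, 42.4%, 24.2%, 18.2%, 0% and 30.3%, against 17%, 21.5%, 13.2%, 12.8%, 2.83% and 18.4% of all genes. In the IgG-partnered lists 0 members had -log10 q of at least 5, where 0.404%, 0.2%, 0.215% and 0.369% of all genes did. There were 7 in EV(RBN), 21.2% beside 8.36% of all genes, and 20 in HA-RBN, 60.6% beside 30.1%.

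**Figure D3:**
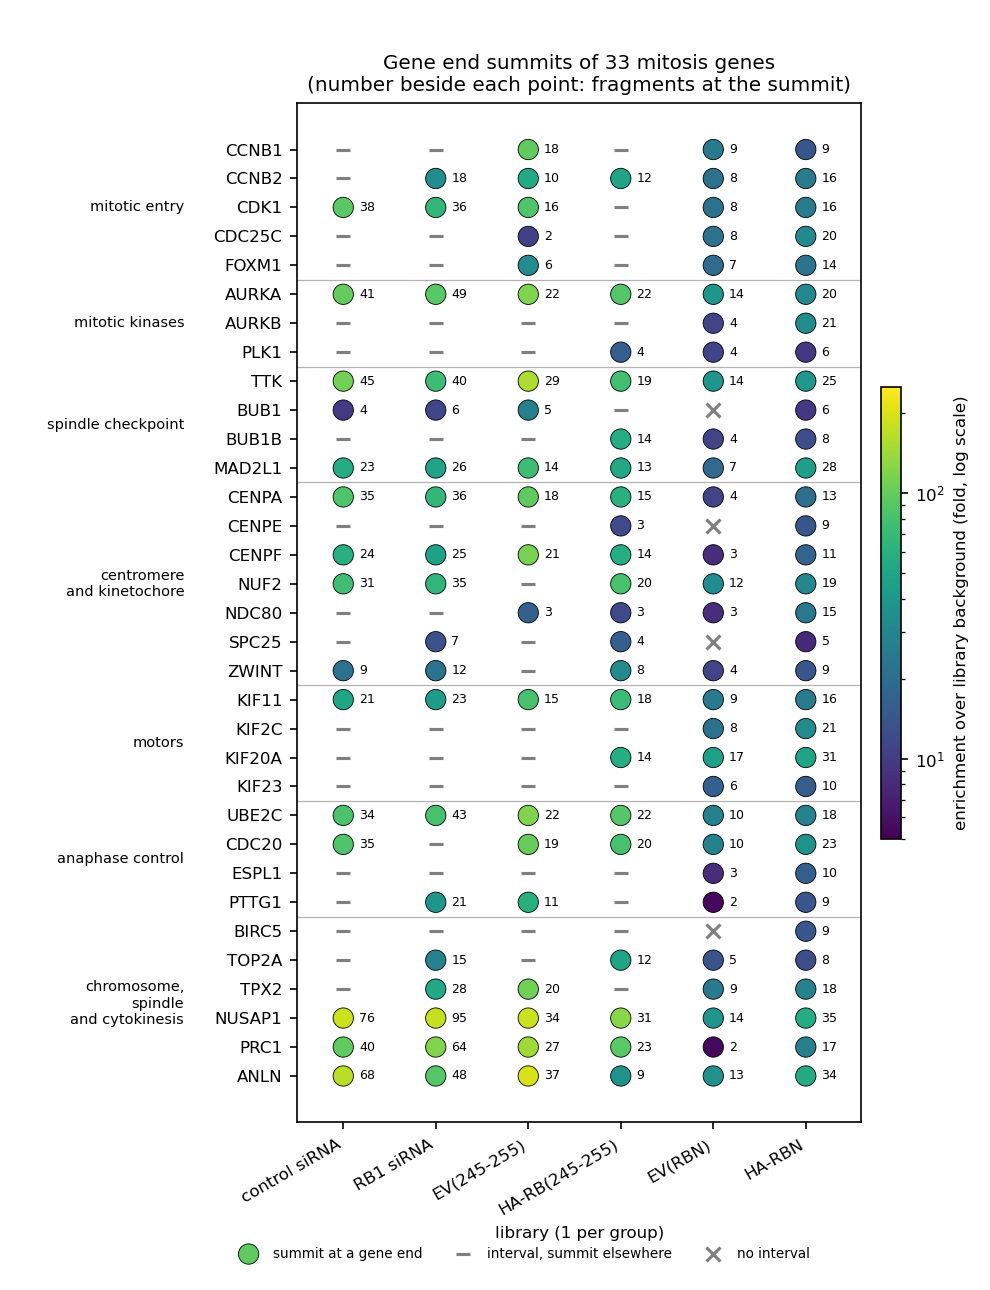
Members by role (rows) and library (columns). Points mark a summit within 1 kb of a gene end, colour gives its enrichment over the library background on a log scale, and the number beside it gives fragments. Dashes mark members inside an interval whose summit lies elsewhere and crosses members with no interval. NUSAP1 is among the 3 highest members in each library, with 14 to 95 fragments, and only EV(RBN) has crosses.

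Summits in all 6 libraries were found for 10 members, 30.3%, against 13.1% of all genes. They were AURKA, TTK, MAD2L1, CENPA, CENPF, KIF11, UBE2C, NUSAP1, PRC1 and ANLN. At the other end BIRC5 was listed in HA-RBN only, and AURKB, CENPE, KIF2C, KIF23 and ESPL1 in 2 libraries. At the edge of the 1 kb window, the ESPL1 summit of 10 fragments in HA-RBN lay 912 bp from the gene end. Just outside it, the nearest summit to TPX2 in HA-RB(245-255) lay 1286 bp away.

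NUSAP1, ANLN and PRC1, of the genes of chromosomes, spindle and cytokinesis, had the most fragments summed over the libraries. NUSAP1, a microtubule-binding protein of the spindle (chromosome 15, 41332881 to 41381046), had 76 and 95 fragments in the siRNA pair, 34 and 31 in the 245-255 pair and 14 and 35 in the RBN pair, control first. ANLN, the anillin scaffold of the cleavage furrow (chromosome 7, 36389862 to 36453791), had 68, 48, 37, 9, 13 and 34 in the same order. The 9 fragments in HA-RB(245-255) belong to another summit 695 bp away, since no interval was listed there over the empty vector's summit. ANLN's summits in EV(RBN) and HA-RBN also lay downstream of the start, at 466 and 381 bp. Those of the siRNA libraries and EV(245-255) lay upstream. NUSAP1's summits in the RBN pair lay 347 bp apart. PRC1, which bundles the microtubules of the central spindle (chromosome 15, 90966040 to 90994535), had 40, 64, 27, 23, 2 and 17. It was high in both siRNA libraries and, with PTTG1, lowest in EV(RBN). TPX2, an activator of Aurora A on the spindle, had 28 with RB1 siRNA, 20 in EV(245-255), 9 in EV(RBN) and 18 in HA-RBN. TOP2A, the topoisomerase that untangles sister chromatids, had 15, 12, 5 and 8 in the 4 libraries that list it. BIRC5, survivin of the chromosomal passenger complex, had 9 in HA-RBN.

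The Aurora and Polo kinases drive entry and spindle assembly. AURKA (chromosome 20, 56369390 to 56392215) had 41, 49, 22, 22, 14 and 20 fragments, at positions from 209 to 310 bp beyond its upper end. AURKB, the kinase of the passenger complex, had 4 in EV(RBN) and 21 in HA-RBN, at summits 384 bp apart. PLK1 had no more than 6 fragments in any library. Of these 3 kinases only AURKA was listed in every library.

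Of the checkpoint genes, TTK, the kinase that starts the spindle checkpoint (chromosome 6, 80004649 to 80042527), had 45, 40, 29, 19, 14 and 25 fragments. MAD2L1, the MAD2 inhibitor of the anaphase-promoting complex (chromosome 4, 120055623 to 120066848), had 23, 26, 14, 13, 7 and 28. Of the other checkpoint genes of the list, BUB1 had 4 to 6 fragments in 4 libraries, and BUB1B 14 in HA-RB(245-255) and 4 and 8 in the RBN pair.

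Among centromere and kinetochore genes, CENPA, the histone H3 variant that marks centromeres (chromosome 2, 26786056 to 26794589), had 35, 36, 18, 15, 4 and 13 fragments. CENPF had 24, 25, 21, 14, 3 and 11. NUF2, a subunit of the NDC80 complex that grips microtubules (chromosome 1, 163321954 to 163355759), had 31 and 35 in the siRNA pair, 20 in HA-RB(245-255), and 12 and 19 in the RBN pair. Its partners in that complex, NDC80 and SPC25, had at most 15 and 7. ZWINT had 9, 12, 8, 4 and 9 where listed, and CENPE, a motor at kinetochores, 3 and 9. In each library that lists NUF2, NDC80 and SPC25 were lower or unlisted. All 7 genes of this role had a summit in HA-RB(245-255), with 3 or 4 fragments for CENPE, NDC80 and SPC25, and 3 of 7 in the empty vector, where the share of all genes was 45.5% and 45.4%. An interval lists 1 summit, so such counts compare listings and not levels.

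Of the motors, KIF11, the Eg5 kinesin that pushes spindle poles apart (chromosome 10, 92593130 to 92655395), had 21, 23, 15, 18, 9 and 16 fragments. KIF20A, a kinesin of cytokinesis, was listed with 14 in HA-RB(245-255), with 17 in EV(RBN), the highest member there, and with 31 in HA-RBN. In EV(245-255) it lay inside an interval of 64895 bp whose summit was 34597 bp away. KIF2C had 8 and 21 and KIF23 6 and 10 in the RBN pair.

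In anaphase control, UBE2C, the ubiquitin-conjugating enzyme of the anaphase-promoting complex (chromosome 20, 45812644 to 45816952), had 34, 43, 22, 22, 10 and 18 fragments. CDC20, an activator of that complex, had 35 with the control siRNA, 19, 20, 10 and 23 in the plasmid libraries, and no summit with RB1 siRNA. There it lay inside an interval whose summit, of 49 fragments, was 7739 bp away. PTTG1, securin, had 21 with RB1 siRNA, 11 in EV(245-255), 2 in EV(RBN) and 9 in HA-RBN. ESPL1, separase, had 3 and 10 in the RBN pair, at opposite ends of the gene, 24260 bp apart.

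Of the genes of mitotic entry, CDK1, the mitotic kinase (chromosome 10, 60778331 to 60794852), had 38, 36 and 16 fragments in the first 3 libraries, none listed in HA-RB(245-255), and 8 and 16 in the RBN pair. CDK1's summits in the RBN pair lay 464 bp apart. Of its cyclins, CCNB1 had 18 in EV(245-255) and 9 in both RBN libraries, and CCNB2 18, 10, 12, 8 and 16 in the 5 libraries that list it. CDC25C, the phosphatase that activates CDK1, had 2, 8 and 20, and FOXM1, the transcription factor of this program, 6, 7 and 14, in EV(245-255) and the RBN pair. All 5 genes had a summit in EV(245-255) and 1 of 5, CCNB2, in HA-RB(245-255). The share of all genes was 45.4% and 45.5% in these libraries. CDC25C's summit in EV(245-255), of 2 fragments, lay near the far end of the gene. For CDK1 no interval was listed at the empty vector's summit, and for CCNB1 and FOXM1 the covering intervals had summits of 26 and 33 fragments elsewhere. These counts, too, compare listings.

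The order of the members was alike in both siRNA libraries (Spearman's rho 0.92 over 14 genes listed in both). It was 0.54 over 13 genes in the 245-255 pair and 0.67 over 29 in the RBN pair. Between libraries of different pairs rho ran from 0.39, HA-RB(245-255) with EV(RBN), to 0.89, RB1 siRNA with EV(245-255). These values use each gene's summit with the most fragments, so for some genes they compare different sites. NDC80's summits lay 46441 bp apart and ANLN's 695 bp apart in the 245-255 pair, and ESPL1's 24260 bp apart in the RBN pair. The values carry no test.

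To compare the libraries of a pair, the fragments at a shared gene end were divided by each library's background. A gene end was shared when both libraries had a summit at the same end within 250 bp of each other, with at least 20 fragments together. The log2 ratio is given relative to the median of all shared gene ends of the pair, with an exact binomial 95% interval for counting error only. That median was -0.12 in the siRNA pair, -0.47 in the 245-255 pair and 0.68 in the RBN pair, so values relative to it and to the background alone differ by these amounts. In all, 19 members had a shared gene end in at least 1 pair.

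The siRNA pair asks how depletion of RB bears on the immunoprecipitated protein. At shared gene ends the mitosis genes stood close to other genes. ANLN, whose summit also lies near an end of MATCAP2, was the lowest of the 13 shared members. ANLN had 48 fragments with RB1 siRNA against 68 with the control siRNA, enrichments of 89.1 and 165, a relative log2 ratio of -0.77 (-1.33 to -0.21). It was the 1 member of 13 more than 1.5-fold lower, against 3.89% of 3289 shared gene ends, and 0 were more than 1.5-fold higher, against 5.99%. The SD of the ratio over all shared gene ends was 0.37. ANLN's interval was also the 1 of 13 below 0, against 3.83% of all, and 0 lay above it, against 2.25%. Whether 1 of 13 departs from those shares was not tested. PRC1 stood on the other side, 64 fragments against 40, at 0.42 (-0.18 to 1.02), with an interval that includes 0. TTK had -0.43 (-1.08 to 0.21) and CDK1 -0.34 (-1.04 to 0.36). The kinetochore genes CENPA, CENPF and NUF2 had -0.22, -0.20 and -0.09, KIF11 -0.13, MAD2L1 -0.09, AURKA -0.01, NUSAP1 0.06, UBE2C 0.08 and ZWINT 0.15, all with intervals that include 0. The member median was -0.09, with 9 of 13 under 0. Relative to the library backgrounds alone it was -0.21, with 11 of 13 below.

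A summit in 1 library only was listed for 5 members with RB1 siRNA (CCNB2, SPC25, PTTG1, TOP2A and TPX2), 15.2% against 13.6% of all genes, and for 1, CDC20, with the control siRNA, 3.03% against 8.17%. For CCNB2, TOP2A and TPX2 the control interval over the same place had a summit of as high or higher enrichment elsewhere. SPC25, with 7 fragments, had no control interval over that position. PTTG1 had 21 fragments, an enrichment of 39.0, where the control interval reached 15 fragments or 36.3 at a summit 51423 bp away. A summit listed in 1 library only is not a measured difference in level.

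The 245-255 pair asks what the RB fragment does to the protein immunoprecipitated there, which the labels do not name. Of 10 members with a shared gene end, 0 lay more than 1.5-fold lower, against 8.41% of 3771 shared gene ends, and 0 more than 1.5-fold higher, against 6.76%. With a minimum of 10 fragments together, 2 were lower, against 13.3% of all, and 0 higher, against 6.87%. Relative to the library backgrounds alone 4 were lower, against 38.6%, and 0 higher, against 0.875%. Lowest were TTK, with 19 fragments against 29, at -0.56 (-1.47 to 0.33), and CENPF, with 14 against 21, at -0.53 (-1.62 to 0.51). KIF11 was highest, with 18 against 15, at 0.32 (-0.76 to 1.41). CDC20 had 0.13, AURKA and UBE2C 0.05 each, MAD2L1 -0.05, NUSAP1 -0.08, PRC1 -0.18 and CENPA -0.21. Every one of the 10 intervals includes 0, so 0 lay below it, against 1.83% of all, and 0 above it, against 1.35%. The narrowest, that of NUSAP1, ran from -0.83 to 0.66, and differences within it were not detectable at this depth. The median was -0.07 with 6 of 10 below. Relative to the library backgrounds alone it was -0.54 with 10 of 10 below, where the median of all shared gene ends was -0.47.

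Listings differed for more members than that. Only EV(245-255) had a summit for 7 members (CCNB1, CDK1, CDC25C, FOXM1, BUB1, PTTG1 and TPX2), 21.2% against 14.1% of all genes. Only HA-RB(245-255) had one for 8 (PLK1, BUB1B, CENPE, NUF2, SPC25, ZWINT, KIF20A and TOP2A), 24.2% against 14.2%. In the other library 5 of the 7 and 5 of the 8 lay inside an interval with its summit elsewhere. TPX2, with 20 fragments, and CDK1, with 16, had no interval over that place in HA-RB(245-255). Whether an IgG read lay there was not tested.

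The RBN pair asks what the RBN insert does to the protein immunoprecipitated there, which is not named either. Here 12 of 13 mitosis genes had a ratio under that of the median shared gene end, and the member median was -0.47, although relative to the library backgrounds alone the median was 0.21 with 2 of 13 below. AURKA was lowest, with 20 fragments against 14, at -0.96 (-2.02 to 0.14). As enrichment it had 31.5 with HA-RBN against 38.2. NUF2 had 19 against 12, at -0.81 (-1.93 to 0.36), and an enrichment of 29.97 against 32.7. KIF11 had 16 against 9 and a ratio of -0.64, TTK 25 against 14 and -0.64, UBE2C 18 against 10 and -0.63, and KIF20A 31 against 17 and -0.61. Those 6 lay more than 1.5-fold lower, against 12.9% of 3999 shared gene ends, and 0 lay more than 1.5-fold higher, against 14.5%. These counts turned with the scaling. Relative to the library backgrounds alone 0 were lower, against 0.675% of all, and 3 higher, against 57.6%. Relative to the median of all shared summits 2 were lower, against 9.3%, and 1 higher, against 18.8%. FOXM1 and TPX2 followed at -0.47 each, then CDC20 at -0.27, CDC25C at -0.15, ANLN at -0.09 and KIF2C at -0.08. MAD2L1 alone stood above, with 28 against 7, at 0.53 (-0.70 to 1.97). Several of these genes, AURKA, NUF2 and KIF20A among them, have another gene's end within 1 kb of their summits, as given above.

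Every one of those 13 intervals includes 0, so 0 of 13 lay below it, against 2% of all, and 0 above it, against 2.3%. The shared members hold 21 to 48 fragments in both libraries together, with EV(RBN) giving 7 to 17 of them. Members with 10 to 19 fragments together, which that minimum leaves out, are given relative to the median of gene ends with at least 10, 0.59. PRC1 had 17 against 2, at 1.71, PTTG1 9 against 2, at 0.79, CENPF 11 against 3, at 0.50, and CENPA 13 against 4, at 0.32. Below stood CCNB1 at -1.38, TOP2A at -0.70, BUB1B at -0.38 and ESPL1 at -0.16. With these included, 14 of 21 members lay below, the median was -0.38, 4 were more than 1.5-fold lower, against 15.1% of 6075 gene ends, and 3 higher, against 15.8%. A summit only in HA-RBN was listed for 4 members (BUB1, CENPE, SPC25 and BIRC5), 12.1% against 20.4% of all genes, with 5 to 9 fragments, and 0 only in EV(RBN), against 7.2%.

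**Figure D4:**
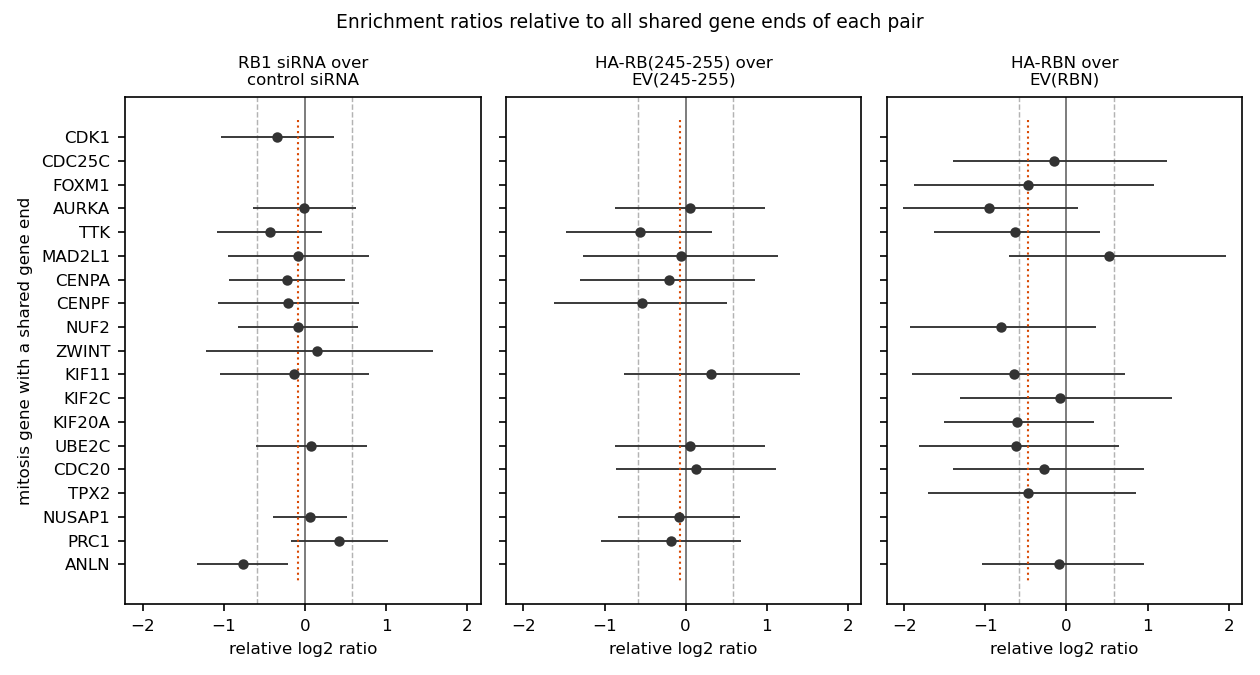
Relative log2 ratio of enrichment, condition over control, for the 19 members with a shared gene end in at least 1 pair. Bars are exact 95% binomial intervals for counting error, the solid line is the median of all shared gene ends, dashed lines mark 1.5-fold, and the dotted line is the member median. ANLN in the siRNA pair has the single interval that excludes 0, and 12 of 13 points of the RBN pair lie left of the solid line.

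By role, the checkpoint kinase TTK stood below the median of all gene ends in every pair (-0.43, -0.56 and -0.64), although in the RBN pair its enrichment with HA-RBN, 39.4, exceeded the 38.2 of the vector, and MAD2L1 stood below in the first and second and above in the RBN pair. Shared kinetochore genes lay below in 3 of 4 cases in the siRNA pair, with ZWINT above, and in 2 of 2 in the 245-255 pair. In the RBN pair NUF2 lay below, while CENPA and CENPF, with fewer fragments, lay above. Of the 5 members shared in all pairs (AURKA, TTK, MAD2L1, KIF11 and UBE2C), TTK was the 1 below in each, singled out after its values were seen. All its intervals include 0. UBE2C was above in the siRNA and 245-255 pairs, and AURKA and KIF11 in the 245-255 pair.

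The other genes of the pathway, 80 in a list of anaphase-promoting complex, condensin, cohesin, MuvB and further mitosis genes, had a gene end summit in 43, 48, 63, 64, 69 and 76 cases in library order. As a share this ran from 53.8% to 95%, above that of the 33 genes in the first 4 libraries and below it in the RBN pair. At shared gene ends their medians were 0.04 over 31 genes in the siRNA pair, 0.02 over 39 in the 245-255 pair and -0.03 over 31 in the RBN pair. More than 1.5-fold lower were 1, 2 and 3 of them, against 3.89%, 8.41% and 12.9% of all shared gene ends. More than 1.5-fold higher were 0, 4 and 5, against 5.99%, 6.76% and 14.5%. In the RBN pair 16 lay below and 15 above, where 12 and 1 of the 13 shared members did, a difference that has no test here. The 10 MuvB and DREAM genes, which encode regulators of the members, had a summit in 3, 5, 6, 10, 9 and 10 cases in library order, beside the 28.1% to 73.4% of all genes given above.

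Peak lists show no expression, so neither the depletion of RB1 nor the identity of the cells can be read from them. Prostate lineage genes had a gene end summit in 2, 4, 5, 5, 7 and 7 of 9 cases, with at most 2 of 20 or more fragments. Genes of other organs had one in 0, 3, 5, 2, 7 and 8 of 19. Both stand beside shares of all genes that ran from 28.1% to 73.4%, as given above.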

How the data were processed

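ChIP-seq peak lists of 6 libraries of 22RV1 cells were used, 1 per group, and no IgG library. The tools named, per the submitters' processing notes, are MACS2 2.1.0, Bowtie 1.1.2, Trimmomatic 0.33 and bcl2fastq 2.17, and the build is hg38. Their settings and the controls for peak calling are not given. Each library has its own list. The deposited lists have no header and hold, per peak, the authors' score, fold enrichment (a ratio over the local background), -log10 p-value and -log10 q-value, and the summit offset.

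Peaks on chromosomes 1 to 22, X and Y were used. By the formula of MACS2, fold is (pileup + 1) over (background + 1) and its p is a Poisson tail at the whole pileup, so both give the fragments at a summit. Pileups came in equal steps, read as 1 fragment, and at least 99.98% of summits in each list were solved. The lowest background was taken where several solutions were found. The step was tested on simulated data. In the lists with an IgG partner a stack needed 181, 171, 70 and 59 fragments to pass p of 0.05 over a background pileup of 1. That pileup was taken as 1 IgG read because the steps in those lists were below 1. Use of the IgG libraries as controls was inferred in this way. Summit coordinates are hg38, and gene ends and start sites came from RefSeq tables of GRCh38.p14. All 141 list symbols matched.

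Members and lists were chosen with earlier results of these data known, and no test was run. All 33 members are reported, with full values for those listed in all libraries or at a shared gene end. Analyses used Python 3.11.15, numpy 2.4.6, pandas 2.3.3, scipy 1.17.1 and matplotlib 3.10.9. Alternatives were the window, summit distance, fragment minimum, fold, list length, q-value and centring.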

Additional observations from a re-analysis of the deposited data

How the results depend on the processing

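Limits come from 1 library per group and from few fragments, most of all in EV(RBN). No paired analysis was possible because each group has 1 library and the labels give no replicate numbers, and no library could be left out. Windows of 500 bp and 2 kb kept each library's count of members with a summit within 1.5 times, as did lists of 20000 peaks, except EV(RBN), where 19 of 33 were left. With at least 20 fragments the counts were 8 and 6 in the 245-255 pair and 0 and 10 in the RBN pair, control first. With -log10 q of at least 5 they were 0 in the 4 libraries with an IgG partner, where at most 0.404% of all genes passed, 7 in EV(RBN) and 20 in HA-RBN.

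With the library background alone as centre, the member median was -0.54 in the 245-255 pair, and it turned to 0.21 in the RBN pair. Members past 1.5-fold then numbered 4 and 3, all lower in the 245-255 pair and all higher in the RBN pair. With the median of all shared summits as centre, 3 members of the RBN pair passed, 2 lower and 1 higher. Asking for 10 fragments together gave 2 in the 245-255 pair, both lower, against 13.3% of all shared gene ends. Asking for 40 left 1 of 2 members in the RBN pair. It was lower, where 10.4% of all were lower and 13.6% higher. Centring on gene ends with 20 to 50 fragments, chosen after the data were seen, gave 2 in the 245-255 pair and 4 in the RBN pair, all lower. Of all shared gene ends 11.8% and 11.3% were then lower. At 2-fold, 0 members passed in the siRNA pair and 0 in the RBN pair. Of all shared gene ends 0.395% were lower and 0.943% higher in the siRNA pair, and 3.03% and 4.35% in the RBN pair. All other settings kept the medians within counting error and the counts, both directions together, within 1.5 times. The directions could still change. In the RBN pair 10 fragments together gave 4 lower and 3 higher, against 15.1% and 15.8% of all. Summits within 500 bp gave 6 lower and 1 higher, against 12.8% and 14.9%.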
